A study of Mus musculus with 24 samples.

Results

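DNA methylation in brown adipose tissue (BAT) was measured by reduced representation bisulfite sequencing (RRBS) and is described here at 10 nuclear receptor genes in infant female C57BL/6J mice after perinatal DDT. The genes were Rxra, Rxrg, Nr1i3, Nr1h3, Hnf4a, Nr5a1, Nr5a2, Nr6a1, Esrrg and Nr4a2, and their members were the MspI fragments to which the authors' annotation gave one of these names. They made up 351 of the 65535 fragments in the table, which runs from chromosome 1 into chromosome 3. Of these, 121 had enough reads to be tested, against 20225 in the whole table. The name Nr6a1 was on no fragment, so 9 of the 10 genes had fragments.

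The study had 2 groups of 12 libraries, each from BAT pooled over female littermates of 1 litter at postnatal day (PND) 12. Dams of the DDT group were gavaged with o,p'-DDT together with p,p'-DDT in olive oil from mid-gestation into the first days after birth. Dams of the control group (VEH) received the olive oil alone. A pool averages its pups and every cell type in the depot, and methylation calls carry no transcript level, so the tissue label could not be checked against marker genes.

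Nuclear receptors are transcription factors that bind DNA at short response elements, many of them switched by a lipophilic ligand. Rxra and Rxrg encode retinoid X receptors, the shared partners with which Nr1i3 and Nr1h3 form heterodimers. Nr1i3 encodes CAR, a sensor of foreign chemicals in liver, and Nr1h3 encodes LXR alpha, an oxysterol receptor of lipid metabolism. Hnf4a is a regulator of hepatocyte genes, Nr5a1 (SF-1) of steroid hormone synthesis and Nr5a2 (LRH-1) of bile acid and cholesterol handling. Nr6a1 (GCNF) acts in germ cells and the early embryo. Esrrg is an orphan receptor of oxidative metabolism, and Nr4a2 (Nurr1) is an orphan receptor induced as an early response gene. Methylation of cytosine in CpG is usually low at CpG-rich promoters and high in gene bodies and between genes.

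In both groups, fragments in the CpG islands of Rxra and Nr4a2 were nearly free of methylation, with VEH levels of 1.04 to 10.97%. Fragments more than 2000 bp from a start of the gene they are named for ranged from 1.65 to 97.4%. The coding exon fragments of Nr4a2 ranged from 33.8 to 72.0%. No receptor fragment differed between DDT and VEH litters at an adjusted p under 0.05 (ANOVA F test, p adjusted by Benjamini-Hochberg across the whole table), nor did any of the 20225 tested fragments, a background of 0%. Quasi-binomial regression and limma also called none. At an unadjusted p under 0.05 there were 2 receptor fragments of 121 (1.65%), in an intron of Esrrg and far upstream of Nr4a2. The background at that threshold was 4.18% of all tested fragments (845), so the receptor share was below it. This order did not hold under quasi-binomial regression (11.6% of receptor fragments, 7.72% of all), a minimum of 5 calls (5.43 and 4.198%) or the replicate number as a block (7.44 and 4.12%), nor in 6 of 24 fits that each left out 1 library.

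The methylation level of a fragment is the percentage of its CpG calls that were methylated, and was taken only from libraries with 10 or more calls there. Testing required such levels in no fewer than 8 VEH and 8 DDT libraries. Differences are given as DDT minus VEH in percentage points, with the 95% interval from the residual spread of the ANOVA. Coordinates are those of the deposited table, and they are GRCm38 positions.

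The sequences below are those of 4 fragments that lie side by side in pairs, chosen after their values were seen because the members of each pair had opposite levels, and of the 2 fragments with an unadjusted p under 0.05. They are printed from the GRCm38 plus strand, with every CpG in capitals, since only these cytosines were counted. Reads began at the fragment ends, so a CpG in the middle of the longer fragments may not have been read.
Rxrg upstream, first, chr1:167583878-167583910: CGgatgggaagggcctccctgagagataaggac
Rxrg upstream, second, chr1:167583911-167584081: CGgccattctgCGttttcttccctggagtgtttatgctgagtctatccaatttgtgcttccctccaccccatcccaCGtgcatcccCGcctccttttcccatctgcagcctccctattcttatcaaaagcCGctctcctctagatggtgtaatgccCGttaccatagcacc
Nr5a2 upstream, first, chr1:137019631-137019669: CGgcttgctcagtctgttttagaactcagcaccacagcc
Nr5a2 upstream, second, chr1:137019670-137019879: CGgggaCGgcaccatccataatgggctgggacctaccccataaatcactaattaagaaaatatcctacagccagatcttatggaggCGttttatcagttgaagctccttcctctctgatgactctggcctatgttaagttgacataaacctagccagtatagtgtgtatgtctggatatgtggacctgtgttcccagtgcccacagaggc
Esrrg intron, chr1:187918021-187918084: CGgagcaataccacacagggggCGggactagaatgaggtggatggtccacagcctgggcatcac
Nr4a2 upstream, chr2:57430824-57430875: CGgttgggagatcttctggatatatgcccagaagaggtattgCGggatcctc

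Total CpG calls ranged from 8371958 to 13768991 in VEH and from 9895508 to 14124652 in DDT libraries, and calls in receptor fragments from 47960 to 83353 and from 56904 to 88793. DDT replicate 4 stood apart. It reached 10 calls in 64 of the 121 tested receptor fragments, against 97 in DDT replicate 3 and at least 112 in every other library. Across the 53 receptor fragments that all 24 libraries covered, its median distance from the VEH mean was 4.95 points, and that of the other libraries was at most 1.56. Its level alone was the lowest of all libraries in 40 of its 64 fragments, and that of DDT replicate 12 in 25 of 112. DDT replicate 4 was at 0% in 22 of its fragments, where other libraries had at most 8, and at 100% in 2. Its level was the highest, ties counted, in 7. The mean over the 53 fragments was 16.8% ± 0.558 in VEH and 16.5% ± 1.78 in DDT (SD, n = 12 each), with 11.9% in DDT replicate 4. The VEH litters spanned 16.1 to 18.01% and the DDT litters 11.9 to 18.7%, so the groups overlapped.

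**Figure D1:**
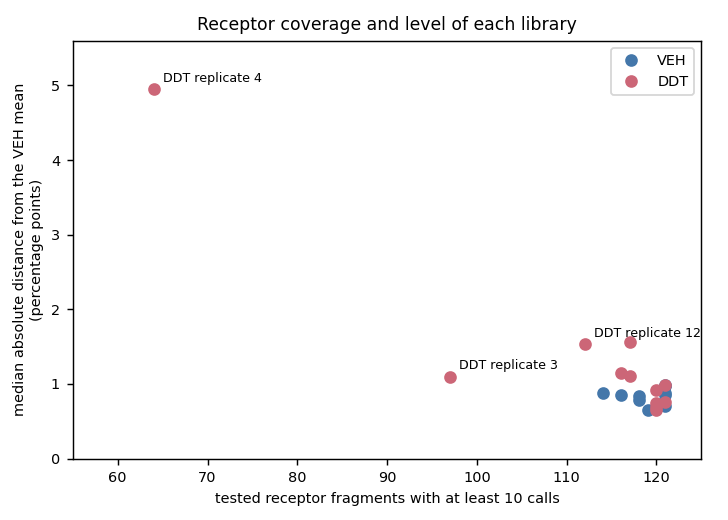
Each point is 1 library (blue VEH, red DDT), placed by the number of the 121 tested receptor fragments with at least 10 calls (x) and by its median absolute distance from the VEH mean in percentage points (y, 53 fragments covered by every library). DDT replicate 4, at 64 fragments and 4.95 points, lies away from all other libraries.

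Among receptor fragments the level was lower in DDT in 75 of 121 (62.0%), beside 56.9% of all tested fragments. The median difference was -0.256 points, and -0.163 over all tested fragments. Without DDT replicate 4 the receptor count was 64 of 121 (52.9%, beside 51.95% of all), and without DDT replicates 4 and 12 it was 58 of 117 (49.6%, beside 49.0%). The SD was larger in DDT than in VEH in 98 of 121 receptor fragments (81.0%), as in 79.2% of all tested fragments. Without the 2 libraries it was larger in 73 of 117 (62.4%), beside 60.4% of all.

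Levels followed position. Of the 24 tested receptor fragments in the core of a CpG island, all of them in Rxra or Nr4a2, 23 had a VEH level under 10%, and the highest was 10.97%. Of the 97 outside a core, 32 were under 10%, 43 between 10 and 80%, and 22 above 80%. Within 2000 bp of an annotated transcript start of the gene (GENCODE M21) the median VEH level was 5.92% over 64 fragments, and farther away it was 63.1% over 57. At an unadjusted p under 0.05 there were 0 of the 64 nearer and 2 of the 57 farther fragments (3.51%). Both shares were under the background of 4.18% of all tested fragments. The count of 0 nearer fragments depended on the setting. With the replicate number as a block, the nearer fragments Rxra 27677858 and Nr5a2 136949140 also had an unadjusted p under 0.05. By quasi-binomial regression such fragments included Nr5a2 136949140 and Nr4a2 57114869, 57123625 and 57123669, and by limma Nr4a2 57123625. Without DDT replicate 2 they included Rxra 27677858, Rxrg 167598790 and Nr1h3 91194944, and other single libraries left out also gave nearer fragments. The median VEH level per gene ran from 95.03% in Nr1i3 (1 fragment), 85.9% in Hnf4a (3) and 75.5% in Esrrg (13) through 33.3% in Nr5a1 (15), 18.5% in Nr5a2 (19) and 15.7% in Rxrg (9) to 9.87% in Nr1h3 (2), 6.94% in Rxra (21) and 5.50% in Nr4a2 (38). Genes were not compared at matched positions, and within Rxra, Rxrg, Nr5a1, Nr5a2, Esrrg and Nr4a2 the levels covered far more than the steps between genes.

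**Figure D2:**
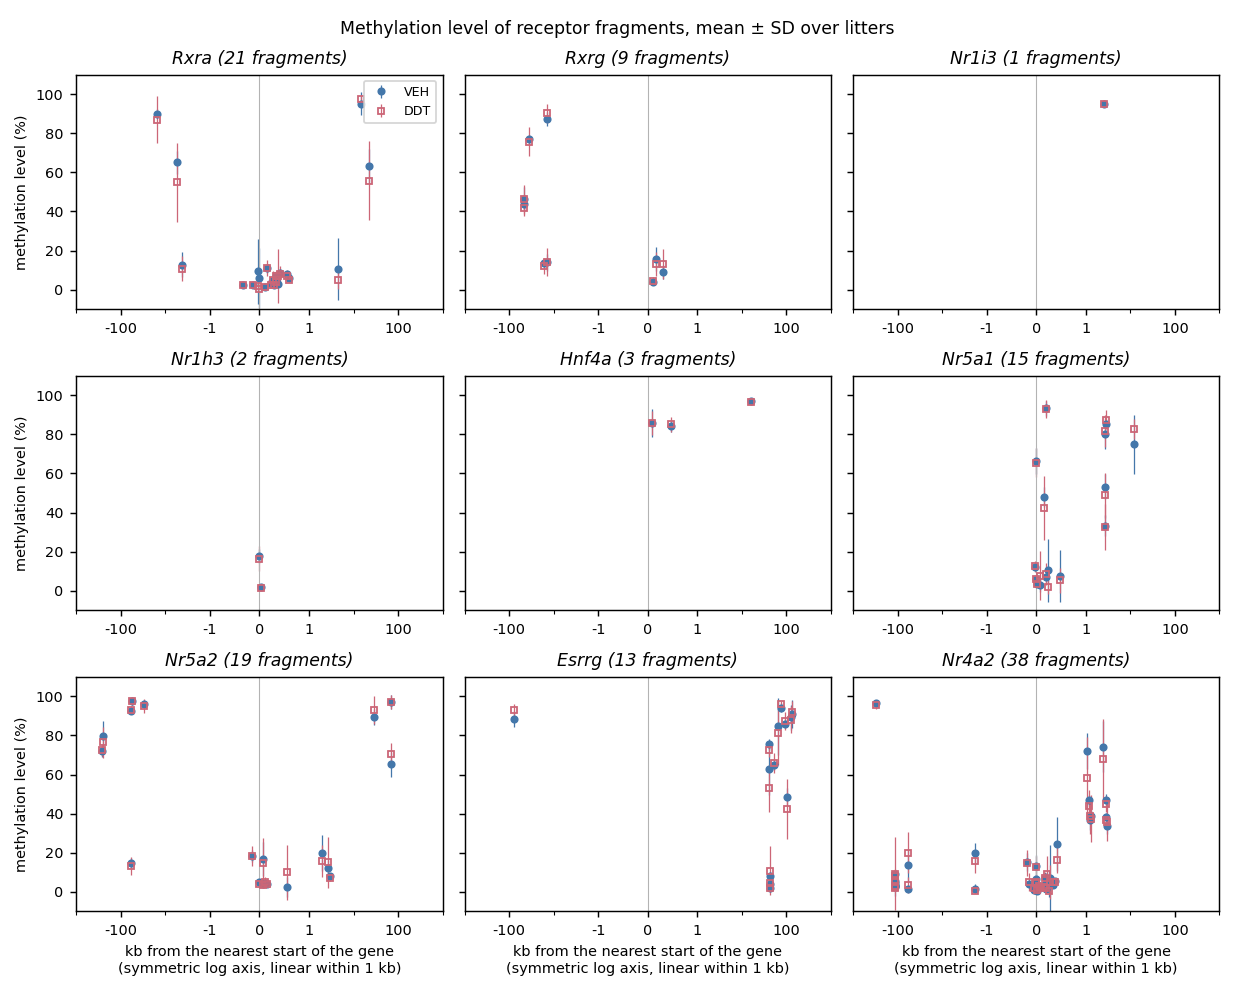
Methylation level (y, %) of the 121 tested fragments against signed distance from the nearest annotated start of the gene (x, kb, symmetric log axis that is linear within 1 kb), as mean ± SD over litters, for VEH (blue circles) and DDT (red squares). Levels near a start were low in Rxra, Nr4a2, Rxrg and Nr5a2 and high in Hnf4a, and the median absolute difference between the groups was 1.26 points.

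The retinoid X receptors differed in their starts. Rxra (chr2:27676440-27762957, plus strand) had 48 fragments, of which 21 were tested. Its RefSeq promoter windows (GRCm38.p6, 250 bases before to 50 after a start) held 1 and 55 CpG, where the median over 32851 windows of all genes was 7 and the upper quartile 20. In its CpG island 15 fragments with 146 CpG, over 1194 bp, had VEH levels of 1.59 to 10.97% and DDT levels of 0.309 to 11.1%. The lowest, chr2:27677370-27677406 in a UTR, ranged in VEH from 1.12 through a median of 1.54 to 2.29%, and in DDT from 0 of 50 calls in replicate 4, which allows up to 6.0%, through 1.55 to 2.25%. The groups overlapped throughout, and the difference was -0.0434 points (interval -0.456 to 0.369).

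The Rxra fragment nearest to the gene start of the authors' annotation was chr2:27676706-27676774 in an intron. The UTR fragment chr2:27677370-27677406 was nearer to a GENCODE start, at 108 bp against 266 bp. The intron fragment averaged 5.11% ± 3.20 in VEH (SD, n = 12) and 5.10% ± 4.39 in DDT (n = 11). Its highest level, 16.7%, came from DDT replicate 3 with 12 calls. The smallest p of Rxra belonged to an intron fragment of the same island, chr2:27677858-27677899. There VEH ranged from 4.16 through 5.56 to 7.21% and DDT from 3.29 through 4.98 to 6.30%, so most values were shared. The difference was -0.789 points (interval -1.61 to 0.0358, unadjusted p = 0.0599). With 1 library left out the ANOVA unadjusted p ran from 0.0234 to 0.114, and it was not under 0.05 in 17 of 24 such fits. Deep in the gene, the intron fragment chr2:27725264-27725338 had the highest level, 95.2% ± 5.71 in VEH (n = 12) and 97.3% ± 2.15 in DDT (n = 10).

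Rxrg (chr1:167598384-167639623, plus strand) had no fragment in an island core, and its promoter windows held 9 and 13 CpG. Of 30 fragments 20 lay outside the gene, and 9 in all were tested. The 3 tested fragments inside the gene lay 107 to 310 bp past a start, with VEH levels from 3.97 to 15.7%. The fragment nearest to the start and lowest in level, chr1:167598587-167598637 in a UTR, averaged 3.97% ± 1.46 in VEH and 4.54% ± 1.83 in DDT (n = 12 each). In the coding exon fragment chr1:167598790-167598845, with the smallest p of the gene, VEH ranged from 3.08 through 8.15 to 14.4% and DDT from 2.34 through 11.2 to 31.6%. The DDT litters spread to both sides of the VEH litters, and the highest came from replicate 3 with 19 calls. The difference was 4.29 points (interval -0.737 to 9.33, unadjusted p = 0.0904). With 1 library left out it ran from 2.47 points without DDT replicate 3 to 5.39 without DDT replicate 2. The ANOVA unadjusted p was 0.0289 without DDT replicate 2, and it was not under 0.05 in 23 of 24 such fits.

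Some 14 kb upstream of Rxrg lay the first of the adjacent pairs printed above. The 33 bp fragment from 167583878, with 1 CpG and the highest level of the gene, was at 87.3% ± 3.43 in VEH (SD, n = 12) and 90.2% ± 4.77 in DDT (n = 11). The 171 bp fragment that begins at the next base, with 6 CpG, was at 13.96% ± 4.19 and 14.1% ± 7.24. The first was higher in 23 of 23 libraries with both levels, by 62.5 to 84.4 points. The step between neighbours was thus many times the difference between DDT and VEH, which was 2.93 points (interval -0.655 to 6.51) in the first and 0.167 in the second.

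Nr1i3 and Nr1h3, the partners of the retinoid X receptors, were thinly covered. Nr1i3 (chr1:171213970-171220701, plus strand), the gene of the xenobiotic sensor CAR, had 6 fragments, and 5 of them also overlapped Tomm40l, a neighbouring gene for an outer mitochondrial membrane import protein. Its promoter window held 3 CpG. The 1 tested fragment, chr1:171216884-171216937, spans coding and UTR sequence 2535 bp past a start and overlaps Tomm40l. VEH litters ranged from 92.6 through 95.5 to 98.5% and DDT litters from 92.2 through 94.6 to 97.0%. The fragment was highly methylated in every litter with a level (12 VEH, 11 DDT), while DDT replicate 4 had only 3 calls there. The groups overlapped nearly fully, with a difference of -0.106 points (interval -1.55 to 1.34, unadjusted p = 0.880). The promoter of Nr1i3 itself was not measured.

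Nr1h3 (chr2:91184061-91202834, minus strand), with 8 and 10 CpG in its promoter windows, had 4 fragments and 2 tested ones, adjacent and at an annotated start within the gene. The first, chr2:91194944-91194997, had the lowest level of the gene, 1.91% ± 0.606 in VEH and 1.63% ± 1.298 in DDT (SD, n = 12 each). In the second, chr2:91194998-91195156, VEH ranged from 10.3 through 17.9 to 24.5% and DDT from 0.206 through 18.1 to 24.9%. The value of 0.206% was that of DDT replicate 4, from 486 calls, while the other DDT litters lay between 9.90 and 24.9%. The difference was -1.45 points (interval -5.87 to 2.97, unadjusted p = 0.504), and 0.0226 points without that library.

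Hnf4a (chr2:163506808-163572910, plus strand), with 4 CpG in each promoter window, was methylated in every tested fragment. It had 9 fragments, of which 3 were tested. The fragment nearest to the gene start was 80 bp past an annotated start inside the gene, chr2:163547268-163547327, and stood at 85.9% ± 7.13 in VEH (SD, n = 12) and 85.9% ± 6.13 in DDT (9 litters). For this fragment a two-sided exact permutation test gave p = 0.980. The intron fragment chr2:163547651-163547714, the lowest of the gene, was at 84.1% ± 2.77 and 85.1% ± 3.77. The coding exon fragment chr2:163566142-163566203, highest in level and smallest in p, ranged from 96.3 through 97.1 to 98.0% in VEH and from 91.7 through 97.1 to 98.8% in DDT. The lowest value again came from DDT replicate 4, with 12 calls, and without it the difference of -0.459 points became -0.000761.

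Nr5a1 (chr2:38692656-38714542, minus strand), the SF-1 gene, held levels of every kind within 22 kb. It had 22 fragments and 15 tested. Around an internal start, 7 fragments with 89 CpG had VEH levels of 2.92 to 12.2%, although the annotation placed none of them in an island core. The fragment that crosses the outermost start, chr2:38714380-38714559, was in contrast at 66.4% ± 6.55 in VEH (n = 12) and 65.5% ± 7.43 in DDT (n = 10). The intron fragment chr2:38714295-38714342 nearby had the highest level, 93.2% ± 3.99 (n = 12) and 93.1% ± 4.61 (n = 11), and the 37 bp fragment between these 2 was at 47.8% ± 5.21 and 42.4% ± 16.4. The high fragment was above the intermediate one in 23 of 23 libraries, by 28.1 to 99.1 points. The widest gap was that of DDT replicate 4, at 100% and 0.877%. The next lowest DDT level of the intermediate fragment was 23.1%, in replicate 3.

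In a coding exon of Nr5a1, 4 fragments in a row, from 38708343 to 38708508, had VEH levels of 85.4, 53.3, 33.3 and 80.2%. The third was below the fourth in 23 of 23 libraries, by 22.4 to 65.2 points. The lowest fragment of the gene, chr2:38712043-38712165 in a UTR, ranged in VEH from 0 through 1.56 to 10.3% and in DDT from 0 through 0 to 34.6%. No methylated call was found in 5 of 11 VEH and 6 of 11 DDT litters, and the 3 highest DDT litters had 10 to 112 calls. Its difference was 4.87 points (interval -3.27 to 13.0). With 1 library left out it ran from 2.19 points without DDT replicate 5 to 5.65 without DDT replicate 2. The smallest p of the gene was in chr2:38710864-38710959, a non-coding exon, where VEH ranged from 0 through 5.83 to 52.9% and DDT from 0 through 0 to 9.38%. The value of 52.9% came from VEH replicate 11, with 17 calls. The difference was -8.49 points (interval -20.1 to 3.08), and -3.76 without that library. The unadjusted p was 0.140 in the fit over all fragments and 0.0652 in a two-sided exact permutation test.

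Nr5a2 (chr1:136842571-136960448, minus strand), the LRH-1 gene, had 79 fragments, 54 of them outside the gene, and 19 tested. Its promoter windows held 2 and 7 CpG. At an annotated start inside the gene, 5 fragments over 788 bp with 20 CpG had VEH levels of 3.97 to 18.5%. One of them, chr1:136949140-136949195, crosses that start and had the smallest p of the gene. There VEH ranged from 3.65 through 5.11 to 6.91% and DDT from 0.0574 through 4.40 to 5.95%. DDT replicate 4 was lowest, with 5225 calls, and replicate 12 next at 2.16%, whereas the other 10 DDT litters lay within 4.22 to 5.95%. The difference was -1.11 points (interval -2.23 to 0.0130, unadjusted p = 0.0525). With 1 library left out it ran from -1.28 points without DDT replicate 1 to -0.744 without DDT replicate 4. The ANOVA unadjusted p was 0.0270 without DDT replicate 1, and it was not under 0.05 in 19 of 24 such fits.

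The lowest fragment of Nr5a2, chr1:136952989-136953080 in an intron, was at 2.57% ± 4.96 in VEH (n = 12) and 9.92% ± 13.9 in DDT (n = 11). Its 12 VEH litters included 9 without a methylated call, and 5 of the 11 DDT litters had none either. The difference of 7.35 points had an interval of -1.56 to 16.3. With 1 library left out it ran from 4.77 points without DDT replicate 1 to 8.41 without VEH replicate 10. Nearest to the gene start of the authors' annotation was chr1:136958395-136958468, at 20.04% ± 9.22 and 15.9% ± 8.19 (n = 12 each). There DDT replicate 4 had 0 of 518 calls, which allows up to 0.579%. Upstream, chr1:137017115-137017174 had the highest level of the gene, 97.4% ± 1.76 (n = 12) and 97.6% ± 1.85 (n = 10).

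The second adjacent pair lay 59 kb upstream of Nr5a2, with the opposite order on the plus strand to that at Rxrg. The 39 bp fragment with 1 CpG was at 14.5% ± 2.95 in VEH and 13.2% ± 4.48 in DDT, and the 210 bp fragment with 3 CpG that follows it was at 92.7% ± 2.0 and 93.0% ± 1.93. The second was higher in 23 of 23 libraries, by 70.8 to 86.6 points. Among 45 pairs of adjacent tested receptor fragments, 4 (8.89%) differed by more than 40 points in VEH, as did 6.21% of 7065 such pairs in the whole table. The median step was 6.64 points, beside 5.57 over all pairs.

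**Figure D3:**
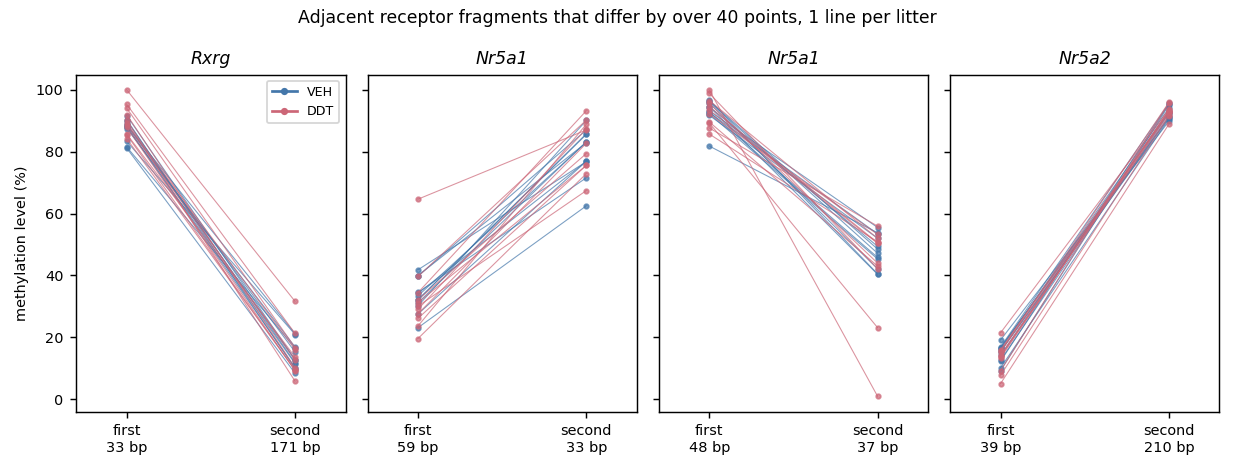
Levels (y, %) of the 4 pairs of adjacent receptor fragments whose VEH means differ by more than 40 points, with the first and second fragment in plus strand order (x) and 1 line per litter (blue VEH, red DDT). Every line of a panel runs the same way, and the VEH and DDT lines are mixed.

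Esrrg (chr1:187608791-188214885, plus strand) is the longest of these genes, and 62 of its 64 fragments lay in introns. Of 13 tested, 6 were above 80% in VEH and 3 below 10%. The 3 low ones formed a run of 119 bp with 19 CpG, from 187651913 to 187652031, about 42 kb past the nearest annotated start. The lowest, chr1:187651913-187651948, ranged from 1.26 through 2.09 to 2.87% in VEH and from 0.0297 through 1.91 to 2.71% in DDT. DDT replicate 4 held the low value, from 3371 calls, and the other DDT litters were at 1.73% or more. The tested fragment nearest to the gene start, chr1:187651168-187651256, lay less than 1 kb before this run and was at 75.5% ± 2.69 in VEH (n = 12) and 72.6% ± 3.72 in DDT (n = 10), a difference of -2.85 points (interval -5.70 to 0.00656, unadjusted p = 0.0505). The highest, chr1:187684300-187684334, was at 94.2% ± 2.33 (n = 12) and 96.0% ± 1.56 (n = 10), with an unadjusted p = 0.0508. With 1 library left out, the ANOVA unadjusted p of the fragment nearest to the gene start ran from 0.00761 to 0.0950. That of the highest fragment ran from 0.0292 to 0.104. These were not under 0.05 in 18 and 17 of 24 such fits.

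The Esrrg intron fragment chr1:187918021-187918084 had the smallest p of all receptor fragments. VEH litters ranged from 81.8 through 88.1 to 96.1% and DDT litters from 89.3 through 91.8 to 97.8%. All 10 DDT litters with a level lay above the VEH mean of 88.3% ± 4.19, and 5 of the 12 VEH litters lay within the DDT range. The difference was 4.74 points (interval 1.45 to 8.02), with an unadjusted p = 0.00695 and an adjusted p = 0.869. DDT replicates 3 and 4 had fewer than 10 calls there and did not enter. Leaving out any 1 of the other libraries moved the difference between 4.14 and 5.44 points.

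Nr4a2 (chr2:57106830-57124003, minus strand) had 89 fragments, 38 of them tested. At its start lies a CpG island, with 52 CpG in the promoter window, and 9 fragments over 536 bp had VEH levels of 1.04 to 5.41%. The fragment that crosses the start, chr2:57123952-57124039, ranged from 3.18 through 4.29 to 7.68% in VEH and from 2.57 through 3.99 to 8.58% in DDT, so that the DDT litters enclosed the VEH litters. The difference was 0.0708 points (interval -1.32 to 1.47), on 495 to 6415 calls per library. A run of 8 fragments with 73 CpG at an internal start was also low, 0.660 to 15.3% in VEH. It held the lowest fragment of the gene, chr2:57114286-57114352 in a non-coding exon, at 0.660% ± 0.677 in VEH and 0.880% ± 1.58 in DDT (n = 12 each).

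The 7 tested coding exon fragments of Nr4a2 were intermediate, 33.8 to 72.0% in VEH. The most methylated of these, chr2:57111891-57112001, named here after its values were seen, had the largest difference of all receptor fragments, 72.0% ± 9.24 in VEH and 58.4% ± 20.9 in DDT, or -13.6 points (unadjusted p = 0.0528). Its median depth was 46.5 calls per library, while the other 6 had medians of 130 to 2486 calls and differences of -2.88 to 2.17 points. For chr2:57111891-57112001 the unadjusted p was under 0.05 by quasi-binomial regression and with a minimum of 5 calls. The same held without DDT replicate 7, 9, 10 or 11 or without VEH replicate 7, 8 or 11, and in no other setting.

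The second fragment with an unadjusted p under 0.05 carries the name Nr4a2 but lies 307 kb upstream of it, chr2:57430824-57430875. It was the most methylated fragment under that name. VEH ranged from 94.8 through 96.8 to 97.9% and DDT from 91.5 through 95.8 to 97.5%. Most litters of the groups overlapped, and 3 DDT litters, replicates 3, 8 and 12, lay below all VEH litters. The means were 96.8% ± 0.908 (n = 12) and 95.4% ± 1.88 (n = 11), a difference of -1.35 points (interval -2.61 to -0.0934, unadjusted p = 0.0365, adjusted p = 0.869). The unadjusted p was no longer under 0.05 when any 1 of 9 libraries was left out (DDT replicates 3, 8, 11 and 12 and VEH replicates 1, 2, 5, 11 and 12), and was largest, 0.0716, without DDT replicate 12.

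Of the fragments named Nr4a2, 52 lay outside the gene, 11 of them tested. A group of 7 tested fragments named Nr4a2, from 57237726 to 57238438, overlapped Gpd2, the gene of mitochondrial glycerol-3-phosphate dehydrogenase, more than 113 kb away. They lay close to an annotated start of Gpd2. Distances were taken to starts of the named gene only, so these fragments counted as far from a start. Their VEH levels were 2.31 to 8.98%, their differences -0.701 to 4.91 points and their smallest unadjusted p 0.422. In all, 132 of the 351 receptor fragments and 25 of the 121 tested ones were outside the gene they are named for, so counts per name are not counts per gene.

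**Figure D4:**
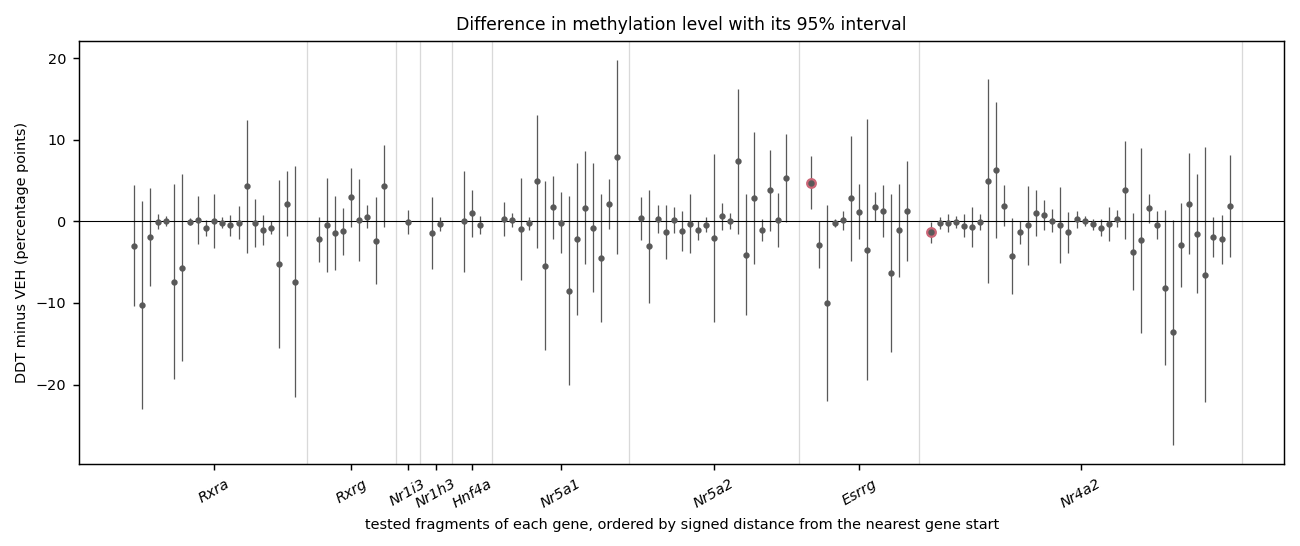
Difference in methylation level (y, DDT minus VEH, percentage points) of the 121 tested receptor fragments with its 95% interval, grouped by gene and ordered by distance from the nearest start. The 2 fragments with an unadjusted p under 0.05, in Esrrg (4.74 points) and upstream of Nr4a2 (-1.35 points), are in red, and the other intervals include 0.

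**Figure D5:**
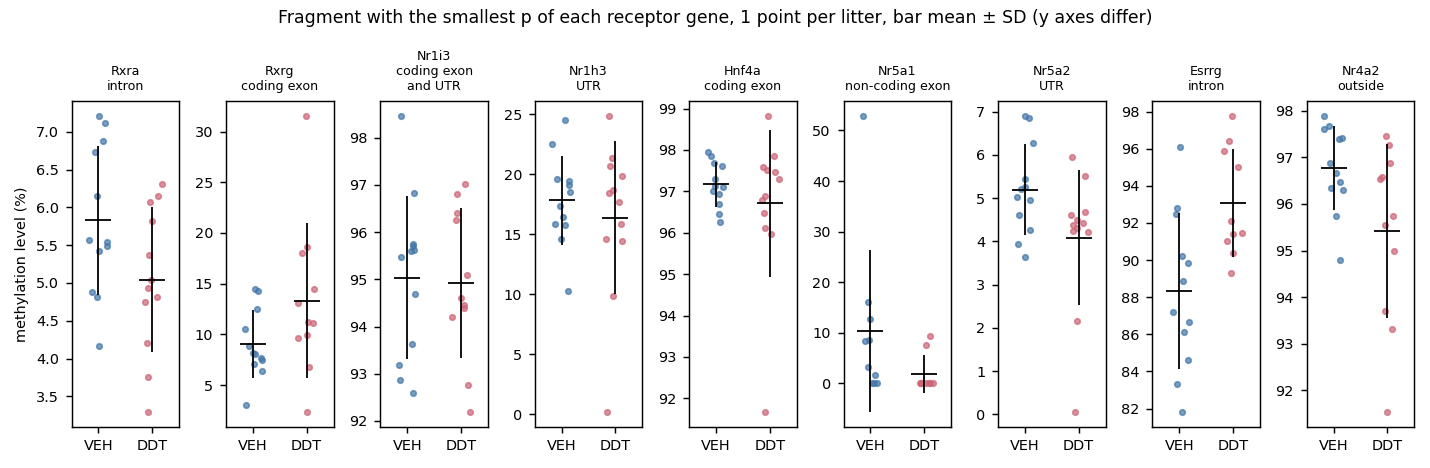
Methylation level (y, %, a separate axis per panel) of the fragment with the smallest p of each of the 9 genes, 1 point per litter, with mean ± SD, for VEH (blue) and DDT (red). The groups overlap in every panel, and single DDT litters lie far below the rest in Nr1h3 (0.206%), Hnf4a (91.7%) and Nr5a2 (0.0574%).

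Nr6a1, the gene of germ cell nuclear factor, was looked up by position after no fragment carried its name. Within its span in GENCODE (chr2:38723370-38927688, minus strand) lay 15 fragments, which the authors' annotation assigned to Olfml2a. The 5 tested ones, from 38925501 to 38926364, were in an island core 46 to 671 bp from a start, with VEH levels of 1.001 to 9.13% and DDT levels of 2.42 to 9.81%. Their differences ran from -1.05 to 1.42 points, and the smallest unadjusted p was 0.202.

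A list of related genes gives the surroundings of these receptors. Of 40 genes for coregulators, the proteins through which receptors activate or repress transcription, and for proteins associated with them, 7 had fragments and 87 fragments were tested. One of the 7 was Src, the gene of a tyrosine kinase and not of a coactivator, with 14 of the tested fragments. In the list 5 fragments (5.75%), 1 of them in Src, had an unadjusted p under 0.05, 3 lower and 2 higher in DDT, near the background of 4.18%, and none an adjusted p under 0.05. The smallest p was at Ncoa2, a p160 coactivator, in an island core upstream (chr1:13374242-13374280), at 1.94% ± 0.635 in VEH and 2.95% ± 0.904 in DDT (n = 12 each, ANOVA over all fragments, unadjusted p = 0.00443, adjusted p = 0.869).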

How the data were processed

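DNA of 24 BAT samples was digested with MspI, end-repaired, size-selected, bisulfite-converted and sequenced as short single-end reads. Per the study's methods, the authors trimmed reads with Scythe and Sickle and aligned them to GRCm38 with Bismark 0.15.0 and Bowtie 2. The deposited values are counts of CpG calls, methylated and not methylated, for each MspI fragment and library, not normalized. The authors also deposited a gene name, region class, island class and distances in bp per fragment, and every deposited per-sample column was used. Whether end-repaired bases were removed from reads that span a short fragment is not given in the sources used here. No molecular identifiers were counted, so calls from PCR copies are not independent and limits from a count of 0 cover counting error only.

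All 65535 fragments began at an MspI site of GRCm38. Transcript starts and gene spans came from GENCODE M21 and promoter windows from RefSeq. Levels came from libraries with 10 or more calls and were compared by the ANOVA F test, which the study names, where 8 or more libraries per group had one, with Benjamini-Hochberg adjustment over 20225 fragments (Python 3.11.15, SciPy 1.17.1). The study's differential methylation package was not run. Groups and replicate numbers came from sample titles. No 2 libraries agreed within sampling noise: the lowest mean chi-square per fragment of any pair was 1.72. Named singly were, per gene, the tested fragments with the smallest p, nearest to the gene start, and with the lowest and highest VEH level, and every fragment at an unadjusted p under 0.05. Nearest to the gene start was judged by the authors' distances, so another fragment can be nearer to a GENCODE start. Others are marked where named, except the Nr5a1 fragments from 38708343 to 38708508 and the one from 38714343. These met none of the rules and were described for the steps between adjacent fragments. Members and lists were chosen with earlier results of these data known. The result of a further gene list is not reported here. Alternatives were quasi-binomial regression, limma 3.58.1 (R 4.3.3) on log2((methylated + 1) / (not methylated + 1)), minimums of 5 and 20 calls, levels in all 24 libraries, a replicate block, a depth covariate and each library left out. Leaving out DDT replicates 4 and 12 together was added after seeing the data. The tests were checked on simulated calls. The simulated shifts were far above the median difference of receptor fragments, lay only at intermediate levels, and used the VEH spread for both groups. Small shifts and low or high levels were not covered by that check.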

Additional observations from a re-analysis of the deposited data

Results flagged for a closer look

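Levels that stood apart were sought in the named fragments with 4 to 10 levels in a group, which were 9 groups, by the gap of the extreme litter to its nearest neighbour. Groups with more than 10 levels were not searched. They held the low levels of DDT replicate 4 at Nr1h3 91194998 (0.206%), Nr5a2 136949140 (0.0574%) and Esrrg 187651913 (0.0297%). The search marked 2 levels, both in Nr5a1. Chance marks about 1 group in 20 where litters share 1 spread. These levels rest on unequal numbers of calls, so that rate cannot tell whether 2 of 9 groups is more than chance. In chr2:38710864-38710959, VEH replicate 11 was at 52.9% from 17 calls, and the next VEH litter was at 16.1%. In chr2:38714380-38714559, at the outermost start, DDT replicate 3 was at 83.3% from 18 calls, and the next DDT litter was at 70%. Both rest on few calls, and their part in the group means was not tested beyond leaving the library out: the first difference moved from -8.49 to -3.76 points and the second from -0.920 to -2.90.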

How the results depend on the processing

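Under all alternatives and with any 1 library left out, 0 receptor fragments had an adjusted p under 0.05. The count at an unadjusted p under 0.05, 2 of 121, was 14 by quasi-binomial regression (background 7.72% of all tested fragments), 4 by limma (3.51%), 7 with a minimum of 5 calls (4.198%), 2 with a minimum of 20 calls (4.26%), 0 of 53 with levels in all 24 libraries (4.24%, neither called fragment then being tested), 1 with the depth covariate (3.59%) and 4 without DDT replicates 4 and 12 (4.51%). It ran from 2 to 7 as libraries were left out one at a time, with 7 without DDT replicate 2 or 10 or without VEH replicate 8 or 9. The cause was not tested. The Esrrg intron fragment kept an unadjusted p under 0.05 in each setting that tested it, and the fragment upstream of Nr4a2 had 0.0650 by quasi-binomial regression and 0.0505 with the depth covariate and up to 0.0716 with 1 library left out.

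Same-numbered DDT and VEH libraries did not deviate together: the correlation of their deviations ran from -0.180 to 0.199, was over 0.1 in 3 of 12 numbers, and 0 of 12 DDT libraries correlated best with their own number. The replicate block gave 9 receptor fragments at an unadjusted p under 0.05 (4.12% of all tested). Signs turned under the replicate block at Rxra 27676706 (0.397 points), Hnf4a 163547268 (0.976), Nr5a1 38714295 (0.0434) and Nr5a1 38714380 (0.435).

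Other reversals, named by fragment start, were at differences of under 1.5 points in the main test. By quasi-binomial regression they were Rxra 27677370 (0.0364), Nr1i3 171216884 (0.195), Hnf4a 163547651 (-0.613), Nr5a1 38714295 (0.0854) and Nr4a2 57123952 (-0.348). By limma, in log2 units, they were Rxra 27677370 (0.0933), Nr5a1 38714295 (0.16), Nr5a2 137017115 (-0.14) and Nr4a2 57123952 (-0.0435). A minimum of 5 calls turned Rxra 27676706 (0.953), and the depth covariate Hnf4a 163547268 (0.00169) and Nr5a1 38714295 (0.012). Without DDT replicates 4 and 12 they were Rxra 27676706 (0.0416), Rxra 27677370 (0.1002), Nr1i3 171216884 (0.168) and Nr1h3 91194998 (0.343). With single libraries left out, signs turned at Rxra 27676706 (-1.17 to 0.413), Rxra 27677370 (-0.107 to 0.0973), Nr1i3 171216884 (-0.328 to 0.206), Nr1h3 91194998 (-2.22 to 0.0226), Hnf4a 163547268 (-1.77 to 1.34), Nr5a1 38714295 (-1.23 to 0.546), Nr5a1 38714380 (-2.90 to 0.113), Nr5a2 137017115 (-0.103 to 0.495), Nr4a2 57114286 (-0.226 to 0.387) and Nr4a2 57123952 (-0.286 to 0.352). None of these differences had passed a threshold. Depth limits the fragments with few calls most, where 1 litter can move a mean by several points.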
